A study of Saccharomyces cerevisiae with 10 samples.

Results

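The ATG genes of budding yeast, Saccharomyces cerevisiae, were described in a series of 10 hours that followed a switch of growth form. The family was taken as every open reading frame of the deposited table whose systematic name carries a standard symbol of the form ATG and a number in the RefSeq R64 gene table. The rule gave 37 genes, of which 36 were in the table among 6292 open reading frames, and ATG44 was not analysed here. Wild-type diploid cells grew as the yeast form in liquid SHAD medium, with ample glucose and ammonium, and were then shifted to SLAD agar, whose scarce ammonium makes diploids form filaments. Each of 10 arrays, 1 per hour from hour 1 to hour 10, paired filamentous-form RNA of that hour with yeast-form RNA on the same array. No strain background, dye or culture replicate is given in the labels.

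Autophagy is the pathway by which a double membrane closes around cytoplasm or a selected cargo and delivers it to the vacuole, where it is broken down and its amino acids are released. In yeast it is a response to nitrogen starvation, and in growing cells the TORC1 kinase restrains it through the Atg13 protein. The Atg1 kinase complex starts the process, vesicles with Atg9 and a phosphatidylinositol 3-kinase with Atg14 supply and mark the membrane, and a pair of ubiquitin-like systems attaches Atg8 to lipid and Atg12 to Atg5. Receptor proteins then tie particular cargoes, such as vacuolar hydrolase precursors, mitochondria, peroxisomes or endoplasmic reticulum, to Atg8 and to the scaffold Atg11. Much of this control acts on proteins, while the data below are mRNA ratios.

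Values are log2 ratios minus the median of their array, written as filamentous over yeast form. The labels do not state that direction, and it is called likely here. It rests on the channel order in the labels and on the higher ratios of the nitrogen-source genes DAL80, GAP1 and MEP2, whose means were 3.03, 1.75 and 1.15, so these 3 genes are no independent evidence of a response. The arrays held 5802 to 6063 usable values, and their medians as deposited lay between 0.12 and 0.39. With 1 array per hour, error could be judged only from how far a gene's values scattered around its fitted time curve, and precision is limited by the number of arrays. Since ratios are of bulk RNA, fewer cells that make a transcript and less transcript per cell cannot be told apart. Per the labels, filamentous-form RNA was in the same channel on every array. A constant difference between channels for a gene therefore cannot be separated from a difference between forms, and the p-values do not cover it. The forms also differed in liquid or agar and in ammonium, and the part of each was not tested.

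Of 360 possible values of the 36 genes, 17 were missing (4.72%). In 27 genes all 10 hours had a value. ATG31 had 6 values and ATG11 had 7, too few for the test, which required at least 8. The other 34 were tested with limma across 5775 genes, as the mean over the 10 hours against 0, two-sided with Benjamini-Hochberg adjustment over all genes and a threshold of 0.05.

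Over the 10 hours, 3 ATG genes were higher in filamentous-form cells and 8 were lower. The higher ones were ATG23, of the Atg9 vesicle pathway, and the cargo receptors ATG39 and ATG19. The lower ones were ATG45, ATG33, ATG40 and ATG36, all of selective autophagy, the phosphatidylinositol 3-kinase subunit ATG14, the lipid-binding protein ATG18, the vacuolar amino acid exporter ATG22 and the scaffold ATG17. The 11 called genes were 32.4% of those tested, against 45.0% of all genes tested (22.6% higher and 22.4% lower), a share below that of all genes. The median of the 34 plain means was -0.03, beside 0.08 over all genes tested. On the deposited scale, without centring, ATG2, ATG7, ATG21, ATG34 and ATG38 were called higher too and ATG17 was not called, which made 8 higher and 7 lower (38.8% and 15.3% of all genes, 54.2% in either direction), so that 53.3% of their calls were on the higher side in place of 27.3% (71.7% in place of 50.3% over all genes).

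**Figure D1:**
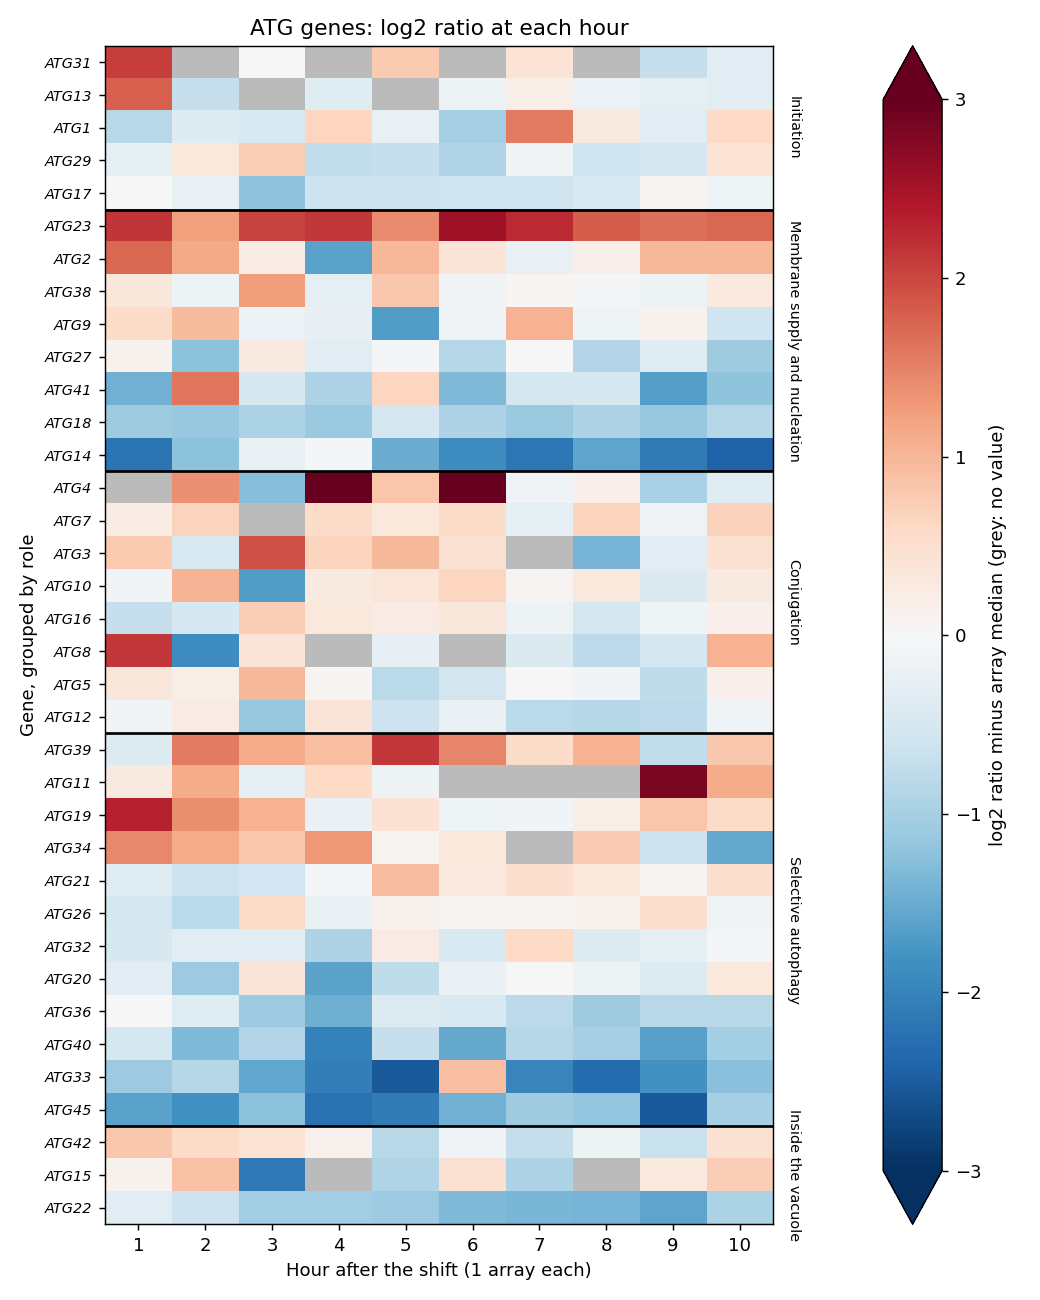
Colour gives the log2 ratio minus the array median for each of the 36 ATG genes (rows, grouped by role) at each hour (columns, 1 array each), with grey for no value and the colour scale ending at 3 and -3. ATG23 is above 0 in all 10 columns, ATG14, ATG18, ATG22, ATG36, ATG40 and ATG45 are below 0 in all 10, and the 2 values beyond the scale are those of ATG4 at hours 4 and 6.

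Initiation was examined first. ATG1, the protein kinase at the head of the pathway, had log2 ratios of -0.82, -0.40, -0.45, 0.65, -0.23, -0.99, 1.56, 0.26, -0.31 and 0.60 from hour 1 to hour 10. The values fell on both sides of 0, with the highest at hour 7. Its mean of -0.01 ± 0.78 (SD over hours, n = 10) did not pass in limma (adjusted p = 0.97), with a 95% interval from -0.52 to 0.49.

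ATG17, which with Atg29 and Atg31 forms the scaffold of bulk autophagy, was the only called gene of the 4 tested in this role (25.0%, against 45.0% of all genes). From hour 1 to hour 10 its log2 ratios were 0.01, -0.21, -1.21, -0.63, -0.62, -0.59, -0.61, -0.46, 0.08 and -0.12. It was below 0 at 8 of 10 hours, furthest at hour 3, and close to 0 at both ends of the series. The mean was -0.44 ± 0.39 (n = 10, limma adjusted p = 0.012), a 1.35-fold difference. This call was lost on the deposited scale, at -0.14 (adjusted p = 0.33), in odd hours alone (adjusted p = 0.12) and in even hours alone (adjusted p = 0.06), and the adjusted p over all alternatives ran from 0.0088 to 0.33.

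Its partner ATG29, whose frame overlaps that of SET6 in the annotation, had a mean of -0.23 ± 0.56 (n = 10, limma adjusted p = 0.30). ATG13, the regulatory subunit of the Atg1 kinase, stood at 1.79 at hour 1 and between -0.69 and 0.17 at the 7 other hours with a value. Its mean was -0.01 ± 0.77 (n = 8, without hours 3 and 5, limma adjusted p = 0.97). ATG31 was high at the same hour, at 2.07, and was -0.02, 0.77, 0.40, -0.69 and -0.33 at hours 3, 5, 7, 9 and 10, with no value at hours 2, 4, 6 and 8. When genes with at least 5 values were admitted, its fitted mean was 0.40 (limma adjusted p = 0.29).

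Membrane supply and nucleation held both the largest positive mean among the ATG genes tested and one of the most negative. ATG23, a peripheral membrane protein that helps Atg9 leave the Golgi, had log2 ratios of 2.14, 1.23, 2.03, 2.11, 1.42, 2.55, 2.25, 1.81, 1.64 and 1.73 from hour 1 to hour 10. All 10 values lay above 1, and its lowest value, at hour 2, was higher than the mean of every other ATG gene tested. The mean was 1.89 ± 0.40 (n = 10, limma adjusted p = 4.8e-06), a 3.71-fold difference. Odd and even hours gave 1.90 and 1.89, and the call held in all 25 alternatives.

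The genes of the proteins that act beside Atg23 did not pass the test. ATG9, the multispanning membrane protein that seeds the membrane, had log2 ratios of 0.55, 0.96, -0.19, -0.26, -1.68, -0.12, 1.05, -0.14, 0.11 and -0.61 by hour. Its mean was -0.03 ± 0.79 (n = 10, limma adjusted p = 0.93), with values on both sides of 0 and the lowest at hour 5. ATG27, the other Atg9 partner, was below 0 at 7 of 10 hours. Its mean was -0.44 ± 0.54 (limma adjusted p = 0.061), with -0.01 in odd hours and -0.87 in even hours. ATG27 passed without hour 1 (mean -0.50, adjusted p = 0.044), without hour 3 (mean -0.52, adjusted p = 0.04) and in even hours alone (adjusted p = 0.019).

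ATG41, an Atg9-binding protein needed for efficient autophagy, had log2 ratios of -1.45, 1.59, -0.49, -0.92, 0.65, -1.33, -0.52, -0.47, -1.66 and -1.20 by hour. It was below 0 at every hour but 2 and 5. The mean of -0.58 ± 1.01 (n = 10) did not pass in limma (adjusted p = 0.13). Without hour 2, where ATG41 was highest, the mean was -0.82 and passed (adjusted p = 0.011). In 22 of 25 alternatives ATG41 was not called. ATG2, the lipid transfer protein at the membrane edge, was above 0 at 8 of 10 hours, from -1.61 at hour 4 to 1.73 at hour 1. Its mean was 0.48 ± 0.94 (limma adjusted p = 0.13). Without hour 4, where ATG2 was lowest, the mean was 0.71 and passed (adjusted p = 0.0059), but 23 of 25 alternatives gave no call.

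ATG18, a lipid-binding protein that works with Atg2, had log2 ratios of -1.06, -1.14, -0.95, -1.10, -0.51, -0.92, -1.12, -0.94, -1.13 and -0.87 by hour. This was the narrowest spread among the ATG genes, with hour 5 alone above -0.8. The mean was -0.97 ± 0.19 (n = 10, limma adjusted p = 3.3e-05), a 1.96-fold difference. ATG21, whose product is a relative of Atg18 that binds the same lipid, had a mean of 0.09 ± 0.51 (n = 10, limma adjusted p = 0.61). The difference between these genes was not tested.

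ATG14, the subunit that directs the phosphatidylinositol 3-kinase to autophagy, had log2 ratios of -2.19, -1.23, -0.21, -0.04, -1.49, -1.88, -2.16, -1.58, -2.13 and -2.43 by hour. It was low at hour 1, near 0 at hours 3 and 4, and low again from hour 5 on. The mean was -1.53 ± 0.83 (n = 10, limma adjusted p = 0.00021), a 2.90-fold difference that held in all 25 alternatives. ATG38, another subunit of that complex, had a mean of 0.21 ± 0.48 (n = 10, limma adjusted p = 0.35).

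Conjugation had no called gene among 8 tested in limma (45.0% of all genes were called), with 2 of the 8 at an unadjusted p under 0.05 (51.9% of all genes). ATG8, the ubiquitin-like protein that coats the membrane and whose transcription is known to rise in starved yeast, had log2 ratios of 2.11, -1.86, 0.38, -0.25, -0.44, -0.78, -0.52 and 1.05 at hours 1, 2, 3, 5, 7, 8, 9 and 10. Hour 1 was the highest of these and hour 2 the lowest, and hours 4 and 6 had no value. The mean was -0.04 ± 1.21 (n = 8), and the fit, which allows for the missing hours, gave -0.18 with a 95% interval from -1.04 to 0.68 (limma adjusted p = 0.73). A 2-fold lower mean lay inside that interval and a 2-fold higher one outside it. Without hour 2 the fitted mean was 0.08.

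ATG4, the protease that trims and later releases Atg8, had the widest spread. It was at 3.64 at hour 4 and 3.49 at hour 6, and between -1.27 and 1.37 at the 7 other hours with a value. The mean of 0.75 ± 1.79 (n = 9, without hour 1) did not pass in limma (adjusted p = 0.34). In even hours alone, which hold both high values, the fitted mean was 1.66 and passed (adjusted p = 0.035). Odd hours alone had 4 values, with a plain mean of -0.38. There the fit, with its linear and quadratic terms, gave -1.12 (limma adjusted p = 0.10), which rests on few values.

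The enzymes of conjugation lay nearer to 0. ATG7, the activating enzyme of both systems, was above 0 at 7 of 9 hours with a mean of 0.37 ± 0.36 (limma adjusted p = 0.073). It passed without hour 7, where it was lowest (mean 0.45, adjusted p = 0.036), and with a term for odd against even hours (adjusted p = 0.032). In 19 of 24 alternatives ATG7 was not called. ATG3, the enzyme that transfers Atg8, had a mean of 0.35 ± 0.96 (n = 9, without hour 7, limma adjusted p = 0.40), with 1.93 at hour 3 and -1.39 at hour 8. ATG10, the transferring enzyme for Atg12, had a mean of 0.08 ± 0.73 (n = 10, limma adjusted p = 0.82), and its lowest value, -1.68, was also at hour 3.

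ATG12, the second ubiquitin-like protein, was below 0 at 8 of 10 hours, with a mean of -0.40 ± 0.51 (limma adjusted p = 0.078). It passed without hour 4, where it was highest (mean -0.48, adjusted p = 0.033), and with a term for odd against even hours (adjusted p = 0.032). In 22 of 25 alternatives ATG12 was not called. ATG5 and ATG16, which join Atg12 in the complex that places Atg8 on the membrane, had means of -0.04 ± 0.54 and -0.02 ± 0.45 (n = 10 each, limma adjusted p = 0.85 and 0.93).

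**Figure D2:**
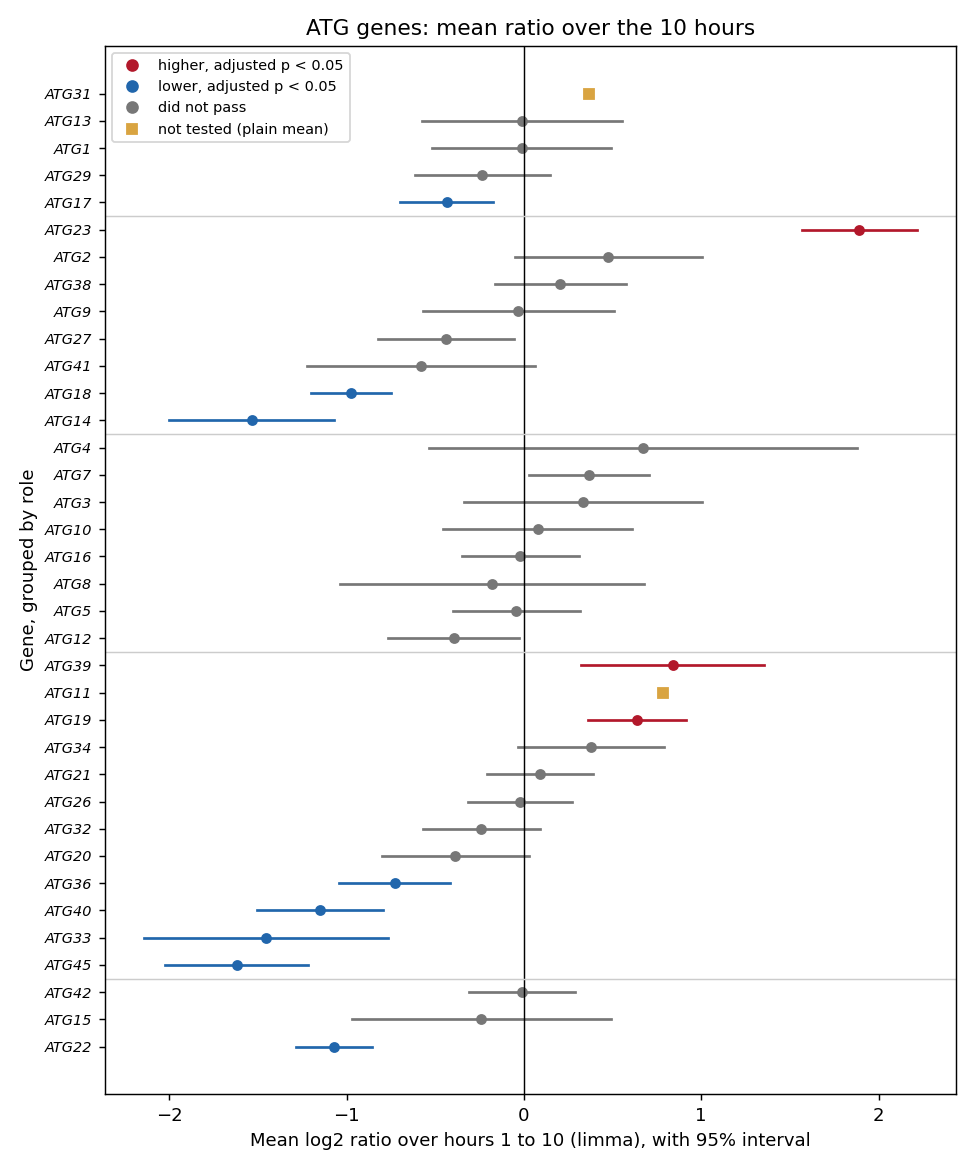
Points give the mean log2 ratio over hours 1 to 10 from limma for the 34 ATG genes tested, with 95% intervals, grouped by role; squares give the plain mean of ATG31 and ATG11, which were not tested. The 3 genes called higher run from ATG19 to ATG23 and the 8 called lower from ATG17 to ATG45, and no conjugation gene is coloured as called.

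Selective autophagy, the role with the most genes tested, had 2 higher and 4 lower of 11 (54.5%, near the 45.0% of all genes). ATG19, the receptor that carries aminopeptidase precursors to the vacuole, had log2 ratios of 2.30, 1.40, 1.05, -0.19, 0.44, -0.12, -0.07, 0.17, 0.84 and 0.58 by hour. It was high at hours 1 to 3 and within 0.5 of 0 from hour 4 to hour 8. The mean was 0.64 ± 0.79 (n = 10, limma adjusted p = 0.002). The call was lost without hours 1 and 2 together, at 0.34 (adjusted p = 0.12), and in even hours alone (adjusted p = 0.14), the alternatives spanning 0.00016 to 0.14.

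ATG34 lies next to ATG19 on chromosome XV with no annotated gene between them, and its product is a receptor of the same kind for mannosidase under starvation. It was at 1.44, 1.12, 0.81 and 1.30 at hours 1 to 4, at 0.08, 0.31 and 0.76 at hours 5, 6 and 8, and at -0.65 and -1.53 at hours 9 and 10. The early hours were thus high in both genes, while the last hours were below 0 for ATG34 and above 0 for ATG19. The mean of ATG34 was 0.40 ± 0.98 (n = 9, without hour 7, limma adjusted p = 0.12). Without hour 10, where ATG34 was lowest, the fitted mean was 0.60 and passed (adjusted p = 0.031), but 22 of 24 alternatives gave no call.

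ATG39, the receptor for the nuclear envelope and perinuclear endoplasmic reticulum, had log2 ratios of -0.41, 1.56, 1.12, 0.91, 2.11, 1.46, 0.54, 1.05, -0.74 and 0.80 by hour. It was above 0 at every hour but 1 and 9. The mean was 0.84 ± 0.87 (n = 10, limma adjusted p = 0.014), a 1.79-fold difference. Odd hours alone gave 0.53, which did not pass (adjusted p = 0.11), and even hours 1.15, with adjusted p from 0.0025 to 0.11 over the alternatives.

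The other endoplasmic reticulum receptor was on the lower side. ATG40, for cortical and cytoplasmic endoplasmic reticulum, had log2 ratios of -0.53, -1.32, -0.89, -2.02, -0.70, -1.54, -0.86, -1.01, -1.63 and -1.01 by hour. All 10 values were below -0.5, with the lowest at hour 4. The mean was -1.15 ± 0.46 (n = 10, limma adjusted p = 0.00023), a 2.22-fold difference. The values of ATG39 and ATG40 overlapped only through ATG39 at hour 9.

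ATG45, a receptor for glycogen, had log2 ratios of -1.61, -1.81, -1.24, -2.24, -2.11, -1.43, -1.07, -1.17, -2.53 and -0.997 by hour. All 10 values were below -0.9, the mean of -1.62 ± 0.53 (n = 10, limma adjusted p = 5.3e-05) was the most negative of the ATG genes, and the fold was 3.07. ATG36, the receptor for peroxisomes, had -0.02, -0.36, -1.09, -1.46, -0.40, -0.46, -0.78, -1.06, -0.84 and -0.82 by hour. All its values were below 0, hour 1 only just. Its mean was -0.73 ± 0.42 (n = 10, limma adjusted p = 0.0019), a call lost in odd hours alone (adjusted p = 0.076, against 0.0013 at the lowest).

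Mitophagy, the removal of mitochondria, was represented by a pair of genes. ATG33, a protein of the mitochondrial membrane, had log2 ratios of -1.10, -0.85, -1.57, -2.06, -2.53, 0.91, -1.98, -2.30, -1.82 and -1.25 by hour. Hour 6 stood above 0 and the 9 other hours at -0.85 or below. The mean was -1.46 ± 0.99 (n = 10, limma adjusted p = 0.0033), a 2.74-fold difference, and without hour 6 it was -1.72. In even hours alone, which hold hour 6, the mean of -1.11 did not pass (adjusted p = 0.17, against 1.6e-05 at the lowest). ATG32, the mitochondrial receptor itself, had -0.48, -0.32, -0.33, -0.93, 0.26, -0.45, 0.59, -0.42, -0.29 and -0.04 by hour. It was below 0 at 8 of 10 hours, furthest at hour 4, and highest at hour 7. Its mean was -0.24 ± 0.42 (n = 10, limma adjusted p = 0.21), with a 95% interval from -0.57 to 0.09 that leaves out a 2-fold difference.

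ATG11, the scaffold to which receptors bind, had log2 ratios of 0.27, 1.11, -0.27, 0.61, -0.15, 2.82 and 1.11 at hours 1, 2, 3, 4, 5, 9 and 10, with no value at hours 6, 7 and 8. The highest value was at hour 9. The plain mean was 0.79 ± 1.05 (n = 7), and with at least 5 values admitted the fitted mean of 0.82 did not pass in limma (adjusted p = 0.094). ATG20, a sorting nexin, had a mean of -0.39 ± 0.62 (n = 10, limma adjusted p = 0.12). It passed without hour 3, where it was highest (mean -0.47, adjusted p = 0.042), but 23 of 25 alternatives gave no call. ATG26, a sterol glucosyltransferase, had a mean of -0.02 ± 0.42 (n = 10, limma adjusted p = 0.91).

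Of the 3 genes that act inside the vacuole, ATG22, which exports amino acids released by breakdown, was called (33.3%, against 45.0% of all genes). Its log2 ratios were -0.31, -0.61, -1.04, -1.05, -1.08, -1.33, -1.36, -1.40, -1.58 and -0.95 by hour, each lower than the one before from hour 1 to hour 9, and higher again at hour 10. The mean was -1.07 ± 0.39 (n = 10, limma adjusted p = 1.2e-05), a 2.10-fold difference with odd and even means both at -1.07. The slope of -0.09 per hour did not pass (limma adjusted p = 0.39). ATG15, the lipase that opens autophagic bodies, had a mean of -0.19 ± 1.04 (n = 8, without hours 4 and 8, limma adjusted p = 0.58), and ATG42, a carboxypeptidase, had -0.01 ± 0.58 (n = 10, adjusted p = 0.95).

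**Figure D3:**
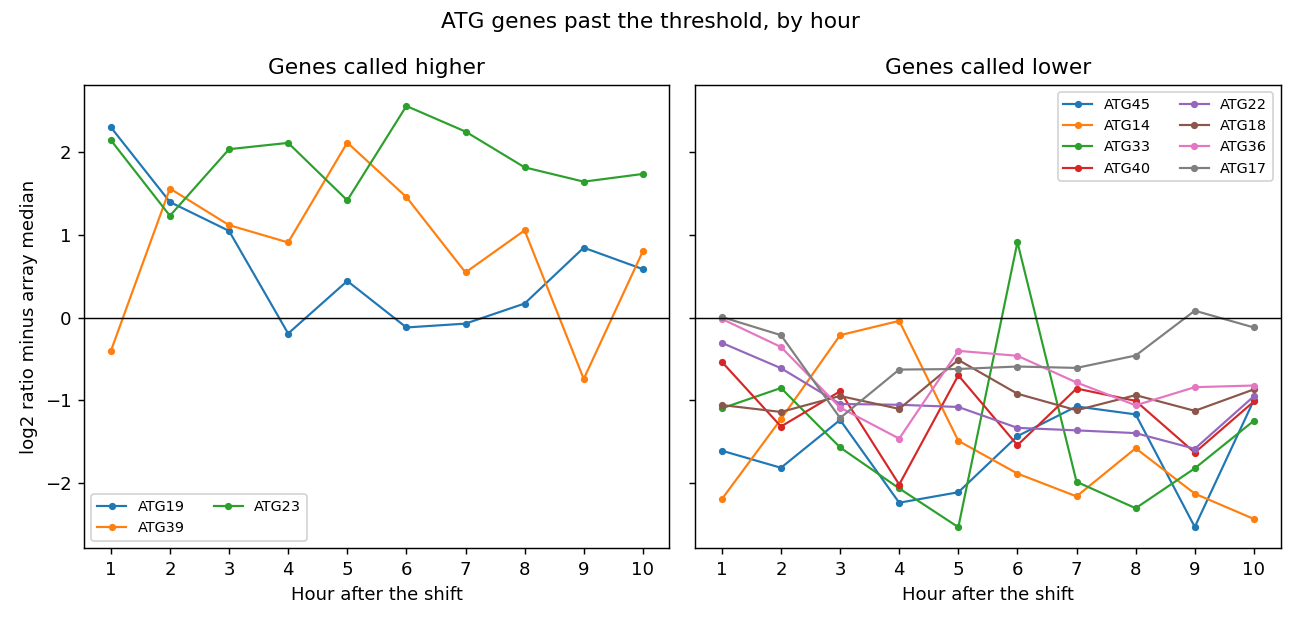
Lines give the log2 ratio minus the array median at each hour for the 3 ATG genes called higher (left) and the 8 called lower (right), 1 array per hour. ATG23 stays above 1 at all 10 hours, ATG19 is highest at hour 1, and ATG33 is below 0 at every hour except 6, where it is 0.91.

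A further comparison asked whether ATG genes rose or fell from hour 1 to hour 10. None of 34 passed in limma for a linear or a quadratic change, as was so for 0 of 5775 genes (0.0%). At an unadjusted p under 0.05, 4 ATG genes had a linear and 3 a quadratic change, beside 11.1% and 10.4% of all genes. The most negative slopes were those of ATG34, at -0.26 per hour (95% interval -0.40 to -0.12, adjusted p = 0.26), ATG19, at -0.14 (adjusted p = 0.35), and ATG14, at -0.13 (adjusted p = 0.54). The most positive were those of ATG1, at 0.11 (adjusted p = 0.65), ATG21, at 0.11 (adjusted p = 0.42), and ATG20, at 0.08 (adjusted p = 0.72). Hour by hour, the share of ATG genes above 0 lay lowest at hour 9, at 25.0%, and was below that of all genes at 9 of 10 hours, while that of all genes tested stayed between 49.6% and 50.3%.

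The labels name no batch, but 367 of 5775 genes (6.35%) differed between odd and even hours, 4.35% higher and 2.01% lower in odd hours, when that difference was fitted as a term in limma. No ATG gene was called for it (4 of 34 at an unadjusted p under 0.05, against 21.3% of all genes). The most negative difference was that of ATG4, lower in odd hours by -2.53 (95% interval -3.94 to -1.12, adjusted p = 0.051), and this difference passed without hour 8 (adjusted p = 0.015) and, uncentred, as deposited (adjusted p = 0.044). The next most negative were those of ATG15, at -1.22 (adjusted p = 0.24), and ATG10, at -0.86 (adjusted p = 0.26). The most positive differences were those of ATG8, at 1.35 (adjusted p = 0.32), ATG27, at 0.83 (adjusted p = 0.069), and ATG3, at 0.79 (adjusted p = 0.49). In fits on odd hours alone 2 ATG genes were higher and 6 lower of 33 tested, where 15.4% of all genes were higher and 16.7% lower (32.1% called). On even hours alone 4 were higher and 7 lower of 32, where 22.0% of all genes were higher and 23.7% lower (45.7% called). The 6 genes called in both had the same sign in both.

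**Figure D4:**
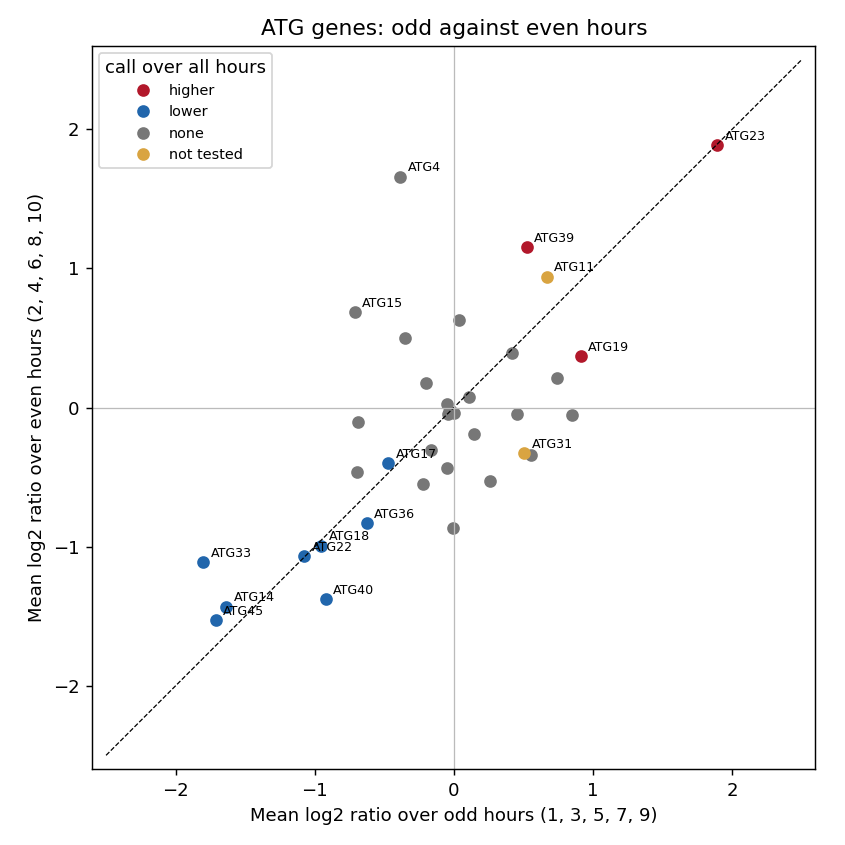
Each point is 1 of the 36 ATG genes, with its mean log2 ratio over odd hours on the x axis and over even hours on the y axis, coloured by its call over all hours; the dashed line marks equal means. ATG23 lies on the line, ATG4 is furthest above it with -0.38 and 1.66, and the genes called lower are below 0 on both axes.

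Genes of the pathway with other names were read from the same fit. Of 60 such genes 58 were tested, 14 were higher and 11 lower (43.1%, beside 45.0% of all genes). On the deposited scale 23 of the 58 were higher, where 38.8% of all genes were. In the phosphatidylinositol 3-kinase, the shared subunits VPS34 and VPS15 had means of -0.22 and -0.24 (limma adjusted p = 0.28 and 0.37). VPS30, which the gene table also lists as ATG6, had a mean of -0.62 ± 0.88 (n = 8, limma adjusted p = 0.052), passed without hour 1 (adjusted p = 0.05 after rounding) and without hour 3 (adjusted p = 0.011), and was not called in 14 of 23 alternatives. VPS38, the subunit that takes the place of Atg14 in the complex for vacuolar sorting, was lower at -1.35 ± 0.93 (n = 10, limma adjusted p = 0.002). Its mean was -0.80 in odd hours alone, where it was not called (adjusted p = 0.063), and -1.90 in even hours.

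The vacuolar breakdown list had 5 of 7 genes lower and 0 higher (71.4% called, against 45.0% of all genes, 22.4% lower). PRB1, a serine protease, was at -1.13 ± 0.42, PEP4, the aspartyl protease that activates the others, at -1.34 ± 0.87, and PRC1, carboxypeptidase Y, at -1.18 ± 0.61 (n = 10 each). YBT1 and AVT3 were lower too, at -0.45 and -0.61. CPS1 and AVT4 were not called, with means of 0.31 and -0.27 (limma adjusted p = 0.54 and 0.44). CPS1 was at 1.40 in odd and -0.78 in even hours, a difference that passed (limma adjusted p = 0.011). ATG22 was lower like PRB1, PEP4 and PRC1, while ATG15 and ATG42 did not pass.

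Among TORC1 and nutrient kinases 6 of 17 were higher and 3 lower (52.9% called, near the 45.0% of all genes). GTR2, a GTPase that signals amino acids to TORC1, was at -1.79 ± 0.46, KOG1, the TORC1 subunit that binds substrates, at -1.37 ± 0.49, and NPR1, a kinase held back by TORC1, at 1.46 ± 0.50. IML1, GTR1, SIT4, GCN2 and SNF1 were higher too, at 0.62, 0.34, 0.56, 1.17 and 0.38, and NPR3 was lower, at -0.60. TOR1, TOR2, LST8 and TCO89 were among those not called, with means of 0.19, 0.29, 0.21 and 0.07. TOR2 was at 1.21 in odd and -0.64 in even hours, and TCO89 at 1.04 and -0.91. Both differences passed (limma adjusted p = 0.035 and 0.027, where 6.35% of all genes passed), so those 2 means join hours of opposite sign. Transcription regulators had 4 of 8 higher and 0 lower, where 22.6% of all genes were higher and 22.4% lower. Among them GCN4, the activator of amino acid synthesis, was at 1.04 ± 0.29, and the GATA activators GLN3 and GAT1 were at 0.79 ± 0.37 and 1.18 ± 0.95. RPD3 was also higher, at 0.51 ± 0.38 (n = 10, limma adjusted p = 0.01). UME6, known as a repressor of ATG8, had a mean of 0.33 ± 0.89 (n = 9, limma adjusted p = 0.41), and SIN3 one of 0.19 ± 1.36 (n = 10, limma adjusted p = 0.74). SIN3 was at 1.31 in odd and -0.93 in even hours, a difference that passed (limma adjusted p = 0.0071).

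Of the cargoes and selective factors with other names 2 of 9 were higher and 0 lower (22.2% called, against 45.0% of all genes). LAP3, an aminopeptidase, was at 1.38 ± 0.51 and AMS1, the mannosidase carried by Atg34 and Atg19, at 0.80 ± 0.70 (odd hours alone did not pass, adjusted p = 0.27). APE1, the main cargo of Atg19, had a mean of 0.40 ± 1.04 (n = 10, limma adjusted p = 0.13). SNX4, also listed as ATG24, had 7 values and was not tested. In tethering and fusion with the vacuole 2 of 13 were higher and 2 lower (30.8% called, against 45.0% of all genes). VAM3, a fusion protein of the vacuole, was at -1.29 ± 0.75, YPT7, the GTPase of that step, at 0.69 ± 0.54 and VPS33, a subunit of the tether, at -1.18 ± 1.01, and the last 2 were not called in odd hours alone (adjusted p = 0.079 and 0.10). PEP3, of the same list, was called higher, at 0.99 ± 0.86 (n = 9, limma adjusted p = 0.012), so the called genes went in both directions.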

How the data were processed

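Per the labels, each of the 10 two-colour arrays held filamentous-form RNA in channel 1 and yeast-form RNA in channel 2. For each array the authors deposited a log2 ratio for every open reading frame. The sources used here do not give dyes, background correction, normalization or centring. Base 2 was settled from the values, since 98.4% of non-zero values gave ratios that were whole ten-thousandths within 0.02, against 4.60% with base e and 4.18% with base 10. In the copy used here all 62920 values had 7 decimals ending in 3, negative ones included, so that none was exactly 0 and 3324 read 0.0000003. The origin of that digit is unknown. It was dropped, and the 3324 values (5.28%) that then equalled 0 were taken as missing.

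Of 6292 names, 5792 matched the RefSeq R64 table, used for names, overlaps and neighbours only. Arrays were centred on their medians. In limma 3.58.1 with R 4.3.3, genes with at least 8 values were fitted with a mean and with linear and quadratic changes over the hours, the quadratic made orthogonal to the others. In genes with missing hours the fitted mean can differ from the plain mean. P-values measure scatter between single arrays, which may be technical, since no label says that hours were separate cultures. The code was tested on simulated data. The members and lists were chosen with earlier results of these data known. By rule, hourly values are given for genes past the threshold and, whatever their p, for ATG1, ATG8, ATG9, ATG11, ATG14, ATG32 and ATG41. Those of ATG31 and ATG34 were added after their values were seen. The rule named at most 3 called genes per further list. Others were named for a subunit, cargo or synonym, or to show the rest of a list, after their values were seen. Planned promoter motif counts were not made, and no sequences were used here. Figures were drawn with matplotlib 3.10.9.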

Additional observations from a re-analysis of the deposited data

Results flagged for a closer look

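In 3 of the 36 ATG genes a single hour stood apart from the gene's other hours by Dixon's criterion at 95%, which chance alone meets in about 1 of 20 genes if values are normally distributed. The criterion was applied to ATG genes only, so the share over all genes is not known and the count is no result about the family. ATG13 was at 1.79 at hour 1, with the next highest value at 0.17 (n = 8). ATG18 was at -0.51 at hour 5, with the next at -0.87 (n = 10). ATG33 was at 0.91 at hour 6, with the next at -0.85 (n = 10). Each hour is a single array, so these values have no repeat.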

How the results depend on the processing

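Of 840 recomputed means of single ATG genes, 738 kept their sign and their side of the threshold, 10 lost a call, 27 gained one and 65 changed sign, the last in 16 genes and each time uncalled both as reported and under the setting that turned it. ATG14, ATG18, ATG22, ATG23, ATG40 and ATG45 were called in all 25 alternatives run for each. On the deposited scale 8 ATG genes were higher, the median of the fitted means was 0.26 in place of -0.04 and 1 differed between odd and even hours. On that scale 23 of 58 further pathway genes were higher, beside 38.8% of all genes. The median was -0.23 over the 27 genes that had all 10 values, and -0.19 without hours 1 and 2. The tested genes with a missing value had fitted means of 0.67 (ATG4), 0.38 (ATG34), 0.37 (ATG7), 0.33 (ATG3), -0.01 (ATG13), -0.18 (ATG8) and -0.24 (ATG15). With adjacent hours averaged 5 ATG genes were higher and 12 lower of 34 tested. Of the further pathway genes, 6 were lower in odd hours alone and 9 higher at an adjusted p under 0.01. Shares over all genes are not given here with adjacent hours averaged or at an adjusted p under 0.01, so those counts have no background beside them. The cause of these moves was not tested.

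Leaving out each hour in turn gave 3 to 4 ATG genes higher, 8 to 10 lower, a median from -0.16 to -0.04, 0 called for a linear or quadratic change, 0 to 1 for odd against even hours, and 12 to 14 further genes higher and 10 to 12 lower. Shares over all genes are not given here for these fits. The ranges of fitted means that crossed 0 were -0.19 to 0.10 for ATG1, -0.16 to 0.0406 for ATG5, -0.40 to 0.0803 for ATG8, -0.15 to 0.15 for ATG9, -0.0277 to 0.27 for ATG10, -0.28 to 0.14 for ATG13, -0.40 to 0.0326 for ATG15, -0.10 to 0.0554 for ATG16, -0.00075 to 0.17 for ATG21, -0.0864 to 0.0661 for ATG26 and -0.10 to 0.079 for ATG42.

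Other sign changes were on the deposited scale for ATG1 (0.28), ATG5 (0.25), ATG8 (0.10), ATG9 (0.26), ATG13 (0.28), ATG15 (0.0303), ATG16 (0.28), ATG26 (0.28), ATG29 (0.0621), ATG32 (0.0555) and ATG42 (0.28). With exact zeros kept they were ATG1 (0.0542), ATG5 (0.0239), ATG9 (0.0356), ATG16 (0.0479), ATG26 (0.0459) and ATG42 (0.0555). Odd hours alone turned ATG4 (-1.12, from 4 values with a plain mean of -0.38), ATG8 (0.26), ATG10 (-0.35), ATG16 (0.00068) and ATG26 (0.15), and even hours alone ATG1 (0.0246), ATG3 (-0.0532), ATG38 (-0.0452) and ATG42 (0.18). Without hours 1 and 2 the values were ATG1 0.14, ATG10 -0.0204, ATG16 0.12 and ATG26 0.14. ATG1 was at 0.0216 with arrays scaled to equal spread and 0.0034 after quantile normalization, ATG13 at 0.0075 after quantile normalization, 0.0117 with array weights and 0.10 when odd against even hours was fitted, and ATG9 at 0.0034 with array weights. No spot intensities entered, which leaves the arrays' signal over background unknown. No paired analysis was possible because the arrays form 1 group with 1 array per hour.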
